A study of Drosophila melanogaster with 48 samples.

Results

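The homeobox genes described here are 52 Drosophila genes outside the Hox complexes that encode DNA-binding proteins with a homeodomain, 52 of 13922 protein-coding genes on the 6 chromosome arms used. They were given as a list of names, and all 52 were found in the gene table under those names. A peak was counted at a gene when its strongest summit lay inside the gene or within 2 kb of either end. The peaks come from CUT&RUN, in which a nuclease tethered to an antibody releases the DNA around a bound protein, with an antibody against Zelda (Zld), on brains of third-instar larvae.

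Each of the 2 conditions had 2 replicates of 50 brains, and 1 peak list per condition was analysed. The first condition is titled brat and is called brat here. The second is titled UAS-HA-Zld. All 4 samples carry the same genotype label, which names the brat11 allele over a deficiency, Tub-Gal80ts, the UAS-HA-Zld transgene and WorGal4, so the assignment to conditions rests on the titles. Gal80ts blocks Gal4 at low temperature, and WorGal4 is a driver active in neuroblasts. Larvae grew at 18°C until the third instar and then spent 24 h at 33°C. The cell type label is type II neuroblast, but whole brains were used, and binding data hold no marker expression against which to check it. Without a list per replicate the spread between replicates is unknown, and no test of one condition against the other was run.

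Zld is a zinc-finger pioneer factor, a protein that can bind its sites in closed chromatin, and it opens the early embryonic genome. Homeodomain proteins set regional and cell identity: Sine oculis-type and Pax members specify the eye, LIM members specify neuron subtypes, NK members specify muscle and heart, and the TALE members Exd and Hth act as partners of the Hox proteins. In brat mutants type II neuroblasts, stem cells that make neurons by way of intermediate progenitors, accumulate in the larval brain.

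In the brat list 44 of the 52 homeobox genes had a peak, where the background over all protein-coding genes was 42.8%. In the UAS-HA-Zld list 43 did, where the background was 42.4%. Homeobox genes are long, with a median of 10.7 kb against 2.16 kb, and 43 of the 52 fall in the 3 longest of 10 length bins. Protein-coding genes weighted to the same bins had a peak in 64.6% and 62.5% of cases, against 84.6% and 82.7% of the homeobox genes. A peak was present in both lists at 42 genes and in neither at 7. Only the UAS-HA-Zld list had a peak at 1 gene (background 6.47%, 5.68% with the length weighting). Only the brat list had a peak at 2 genes (background 6.85%, 7.71% with the length weighting). For both lists and for neither, no background was computed, so the 42 and the 7 are counts only.

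The homeobox genes had 127 brat peaks against 180 UAS-HA-Zld peaks, and no peak counted for more than 1 of them. Average protein-coding genes of the same length bins would have given 88.3 and 99.96. A peak that shared no base with the other list is called unmatched. Of the UAS-HA-Zld peaks at homeobox genes, 69 of 180 were unmatched, 38.3% (Wilson 95% interval 31.5 to 45.6, counting error only), against 32.9% of the whole list and 28.9% at protein-coding genes weighted to the same lengths. Of the brat peaks 18 of 127 were unmatched, 14.2% (9.16 to 21.3), against 21.9% of the whole list and 21.1% with the length weighting.

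A UAS-HA-Zld-only peak was found at 25 of the 52, 48.1%, where the background was 15.4% over all protein-coding genes and 26.3% with the length weighting. The brat-only kind was found at 13, 25.0%, where the background was 14.9% and 25.5%. The brat-only share was thus at the level of other genes of that length. More peaks in the UAS-HA-Zld list than in the brat list were counted at 24 genes (background 14.8%, 23.9% with the length weighting) and fewer at 9 (background 12.8% and 18.9%). Among the 9 is exex, where a shared peak had its summit within 2 kb of the gene in the brat list only. Unmatched peaks of both kinds lay at 5 genes, a count for which no background was computed.

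**Figure D1:**
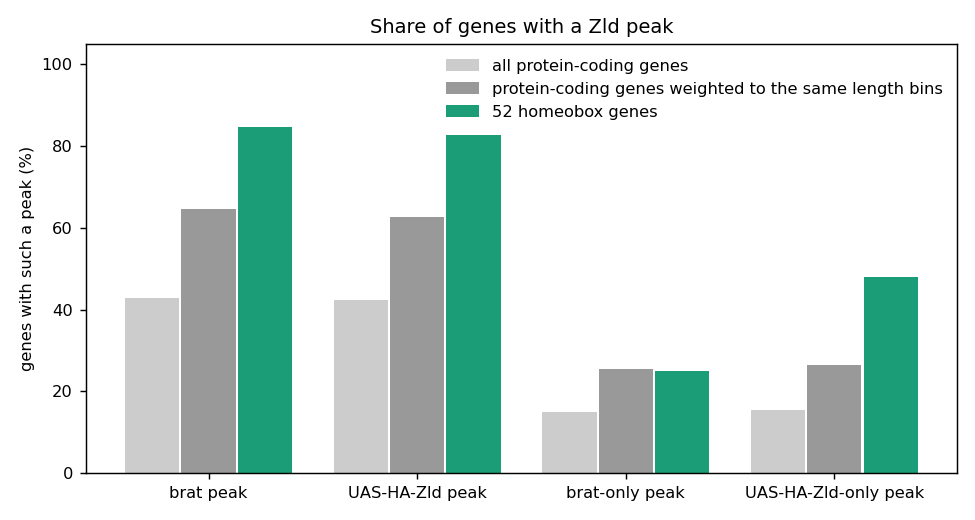
Share of genes in % with a peak in each list and with a peak found in that list only, for all protein-coding genes, for protein-coding genes weighted to the length bins of the homeobox genes, and for the 52 homeobox genes. The homeobox bars stand above both backgrounds except for brat-only peaks, where 25.0% meets a length-weighted 25.5%.

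The peak numbers of each list run in order along the genome, and 19.5% of them are absent from each list, so not every called peak was analysed. At 34 of the 69 UAS-HA-Zld-only peaks, 49.3%, at least 1 brat number was absent between the neighbouring brat peaks, against 51.8% over all UAS-HA-Zld-only peaks. At the brat-only peaks it was 10 of 18, against 61.7% over all. Counting only unmatched peaks with no absent number left UAS-HA-Zld-only peaks at 16 genes and brat-only peaks at 6. Other protein-coding genes were not counted in this way, so the backgrounds given above do not apply to these 2 counts. Whether an absent peak would have matched was not tested.

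Depth also differed. The fold enrichment and p-value of a summit together give its number of piled-up fragments and its local background. The lowest background was 22.6 fragments in brat against 28.8 in UAS-HA-Zld, a ratio of 1.28. The median number at the strongest summits of all peaks was 175 and 238 fragments. With lists of equal length, 48 of 146 UAS-HA-Zld peaks and 30 of 127 brat peaks at the homeobox genes were unmatched. The shares over all peaks and at other genes were not recomputed for equal lengths. Whether the difference from them would remain was not tested.

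Few UAS-HA-Zld-only peaks at homeobox genes lay at gene ends, and few did at other genes of the longest bin. Of the 69, 1 had its summit within 500 bp of an end of its gene, 1.45% (Wilson 95% interval 0.256 to 7.76), and 60 lay elsewhere inside the gene. That peak is at hth. With ends taken as 1 kb wide the number was 5 of 69, and with both lists restricted to a −log10 q of at least 10 it was 4 of 62. Matching by an overlap of at least 50% of each peak gave 6 of 91, and by summits within 250 bp 4 of 85. Over all protein-coding genes 24.2% of UAS-HA-Zld-only peaks lay at an end, 8.57% with the length weighting, and 4.13% in the other genes of the longest bin. Homeobox genes of that bin had 1 of 53, 1.89%. The interval of the 69, which come from homeobox genes of all lengths, lies below the length-weighted 8.57%. It includes the 4.13%, which holds for the longest bin only. The interval takes peaks as independent, but 15 of the 69 lay at hth and 38 at 6 genes. It therefore cannot decide whether the share differs from either background. The 8.57% was not recomputed for the other settings. An unmatched peak cannot overlap a shared one, and how far shared peaks at ends lower the share was not tested. Shared peaks at homeobox genes lay at an end in 32.4% of cases in the UAS-HA-Zld list (36 of 111), against 29.0% for protein-coding genes with the length weighting. UAS-HA-Zld-only peaks lay inside 22 homeobox genes, of which 18 also had a shared peak at an end. Among all 52 genes 34 had such a shared peak, and no background was computed for genes with both. Gene strand was not used, so an end here may be where a gene starts or where it stops.

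**Figure D2:**
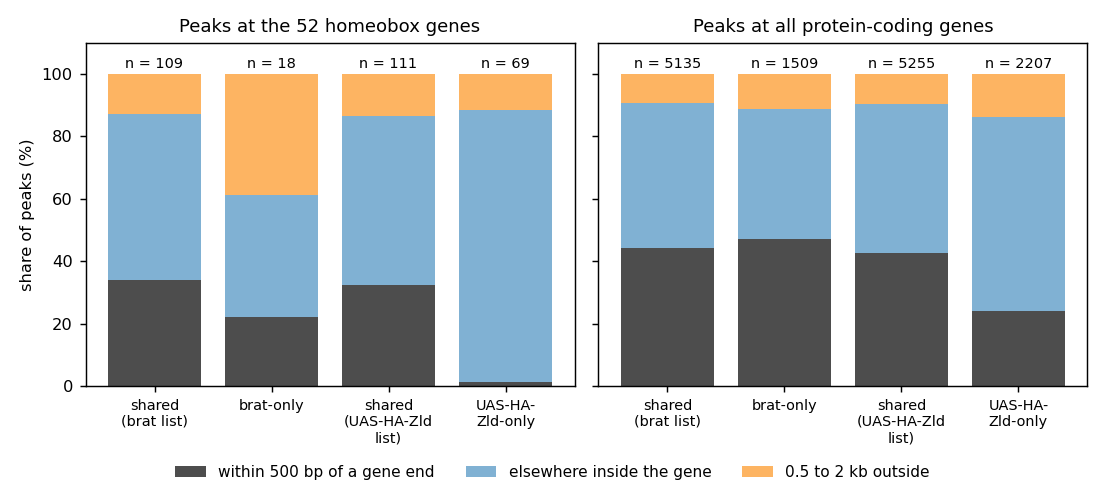
Share of peaks in % within 500 bp of a gene end, elsewhere inside the gene, or up to 2 kb outside, for shared and unmatched peaks of each list at the 52 homeobox genes (left) and at all protein-coding genes (right), with the number of peaks above each bar. The gene-end share is smallest for UAS-HA-Zld-only peaks at homeobox genes, at 1 of 69.

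At the ends of homeobox genes most shared peaks carried more fragments in the UAS-HA-Zld list, 31 of 36 pairs. Fragments are raw numbers here, not divided by the local background. The ratio of fragments, UAS-HA-Zld over brat, had a median of 1.93 over 36 peak pairs at the ends of 34 genes, against 1.18 over 2168 pairs at the ends of protein-coding genes and 1.13 over 489 pairs at other genes of the longest bin. A pair was placed by its UAS-HA-Zld summit alone. The pair at bsh (ratio 2.551) thus counted with a brat summit 826 bp from the end. The pair at mirr (0.8651) did not, with a brat summit at 383 bp and a UAS-HA-Zld summit at 616 bp. The ratio lay above 1.28, the ratio of the lowest backgrounds, in 28 of the 36 pairs, 77.8%, against 43.1% over protein-coding gene ends. The local background at these peaks was not used. By fold enrichment, the end pairs at acj6, ct, eyg, hbn, hth, lbe, onecut, scro, slou and toe were lower in the UAS-HA-Zld list. So was the pair at ro with 184 against 247 fragments, and the other end pairs were higher. Inside the genes the median ratio was 1.495 over 57 pairs, against 1.39 over protein-coding genes. At gene ends the median was also high for the bHLH genes, another family of transcription factors, with 1.87 over 12 pairs, and was 1.54 over 16 pairs at other homeobox genes. The Hox genes had 2 such pairs, with ratios of 1.37 and 3.55. No test between families was run.

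The largest end ratio was at Lim3, with 60 fragments in brat against 297 in UAS-HA-Zld. The summits of this pair lie apart, the brat one 256 bp inside the gene's end and the UAS-HA-Zld one 306 bp outside it. Both are also within reach of amd. At so it was 152 against 560 fragments, and at Ptx1, a Pitx-type factor gene, 688 against 2413. The 5 pairs with fewer fragments in the UAS-HA-Zld list were at eyg, ct, slou, onecut and hth. At ct the end peak had 2954 fragments in brat against 1944 in UAS-HA-Zld, and at slou 1015 against 758. The pairs named by size of their ratio were chosen after their values were seen.

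**Figure D3:**
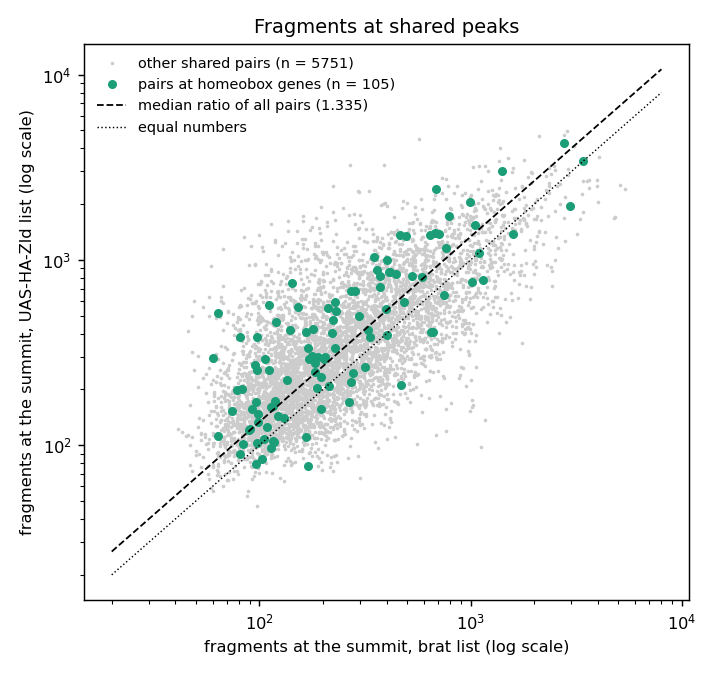
Fragments at the strongest summit of shared peaks on log axes, brat along x and UAS-HA-Zld along y, for 105 pairs at homeobox genes over all other shared pairs. The dashed line is the median ratio of all pairs, 1.335, and 69 of the 105 pairs lie above it.

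The TALE genes, named for extra residues in the homeodomain, hold the gene with most peaks. Homothorax (hth), a 132 kb gene whose product carries Exd into the nucleus, had 18 brat peaks against 33 UAS-HA-Zld peaks. All 18 brat peaks were shared, and 15 of the UAS-HA-Zld peaks were unmatched. By −log10 q in the UAS-HA-Zld list, the strongest shared peak of hth lay 63.9 kb inside the gene (3R:10571109-10571958, dm6), with 794 fragments in brat at a fold enrichment of 11.01 against 1735 in UAS-HA-Zld at 17.2. The next lay 39.6 kb from the other end, with 463 against 1361 fragments. The strongest unmatched peak lay 12.7 kb from an end (3R:10625966-10627066), with 543 fragments, a fold of 10.2 and a rank at the 85.5th percentile of its list. The nearest brat peak was 8600 bp away, and 1 brat number was absent there. The other 14 ranked between the 4.75th and 62.7th percentiles.

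Extradenticle (exd), which encodes the Pbx-type partner of Hth, had 3 brat-only peaks and none in the UAS-HA-Zld list. The strongest had 197 fragments and a fold of 8.39 (X:15991588-15992014), the next 113 fragments and 4.83, and the third 126 fragments and 3.81. The former pair is also within reach of eIF5 and CG46312, and the last of CG8939. At their place 2 UAS-HA-Zld numbers were absent.

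The Iroquois genes ara, caup and mirr, which pattern eye and wing, form 1 cluster of 133.6 kb. That span held 9 brat peaks, 1 of them unmatched, against 20 UAS-HA-Zld peaks, 12 of them unmatched. Of the latter, 8 lay more than 2 kb from the 3 genes and so are not counted at them. Around this span 5 brat numbers and 3 UAS-HA-Zld numbers were absent, and no background was computed for such spans. The shared peak at mirr had 1594 fragments and a fold of 13.5 in brat against 1379 and 8.32 in UAS-HA-Zld. Unmatched peaks inside caup had 595 fragments with a fold of 8.65 and 477 with 3.72, and no brat number was absent there. The tandem genes achi and vis, which act in the male germline, had 1 shared peak between them, at vis.

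Of the 7 TALE genes 6 had a brat peak, and 5 had a UAS-HA-Zld peak. Over all protein-coding genes these shares were 42.8% and 42.4%, with 14.9% for a brat-only and 15.4% for a UAS-HA-Zld-only peak. No length-weighted background was computed for this or any other class. Gene lengths differ between classes, so differences between class counts are not read as results about a class. All peaks of the TALE genes together came to 26 in brat, 4 of them unmatched, and to 41 in UAS-HA-Zld, 19 of them unmatched.

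The sine oculis-type genes, which act in eye specification and muscle, all had peaks in both lists. Their brat peaks numbered 8, all shared, and their UAS-HA-Zld peaks 14, with 7 unmatched. Optix held 3 brat peaks against 6 UAS-HA-Zld peaks. Its end peak (2R:8030595-8032292) had 1401 fragments in brat against 3004 in UAS-HA-Zld, at folds of 7.47 and 11.8. The 4 unmatched Optix peaks were weak, with 103 to 168 fragments, and 1 brat number was absent at their place. Sine oculis (so) had 3 against 6 peaks, and its strongest unmatched peak had 548 fragments and a fold of 5.38, with its border 210 bp from a brat peak and 1 brat number absent. The gene Six4 had 2 shared peaks and no unmatched one.

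The paired and paired-like genes include the Pax6 gene toy, the Pax6-like pair eyg and toe, and Rx, hbn and oc of the head and brain. Of 13 genes, 10 had a brat peak, 3 of them an unmatched one, and 11 had a UAS-HA-Zld peak, 8 of them an unmatched one. OdsH, known from hybrid male sterility among relatives of this fly, had 5 brat peaks against 10 UAS-HA-Zld peaks. Its 5 unmatched peaks all lay inside the gene, and at 4 of them 2 brat numbers were absent. The strongest had 311 fragments and a fold of 8.52 (X:17808915-17809366), above the 74 to 206 of the other unmatched ones. Beside it lies its paralog unc-4, with 1 shared peak and 2 UAS-HA-Zld-only ones.

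Homeobrain (hbn) had the strongest brat peak of the class, with 1049 fragments at a fold of 13.9, against 1550 fragments at 7.22 in UAS-HA-Zld. Unmatched peaks of hbn numbered 2 in UAS-HA-Zld and 1 in brat. At eyg, which promotes growth of the eye disc, the shared end peak had 650 fragments and a fold of 10.4 in brat against 409 and 1.95. The only peak of al, a gene of leg and antenna tips, was in the UAS-HA-Zld list, with 106 fragments and a fold of 1.37, at the 0.706th percentile, and no brat number was absent there. In the span of hbn, otp and Rx, which lie next to each other, 9 brat peaks were counted, 2 of them unmatched, against 12 UAS-HA-Zld peaks, 5 of them unmatched. Around it 1 brat number and 7 UAS-HA-Zld numbers were absent. The genes toy and Pph13 had no peak.

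**Figure D4:**
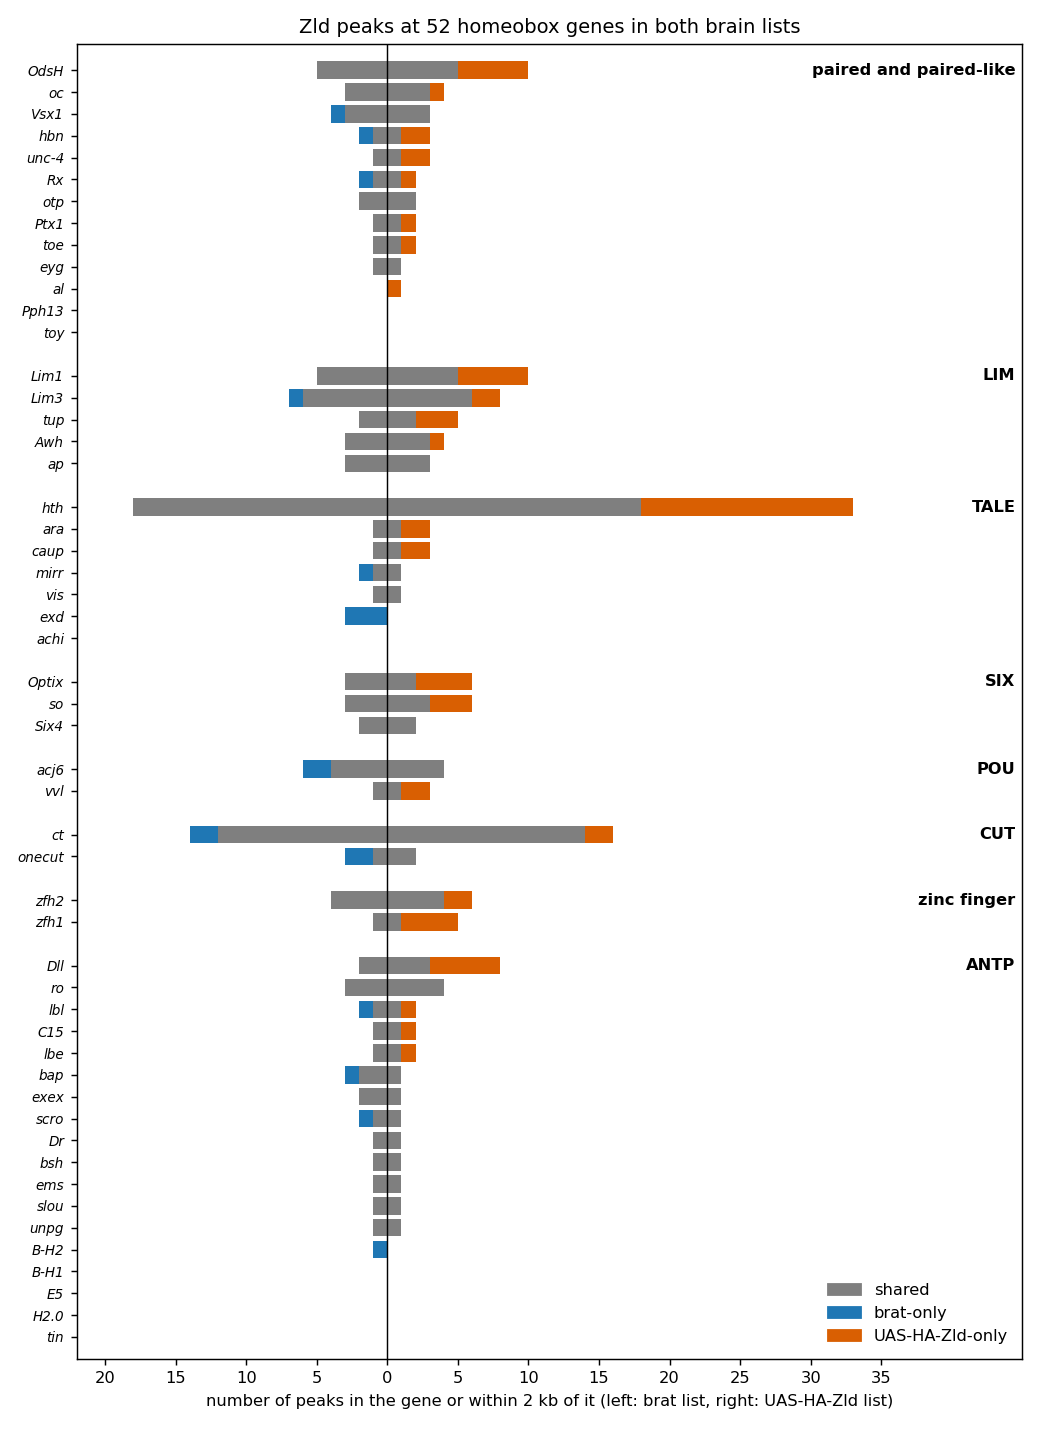
Number of peaks at each of the 52 genes by homeodomain class, to the left for brat and to the right for UAS-HA-Zld, split into shared and unmatched peaks. The longest bars are those of hth, with 18 and 33 peaks, and ct, with 14 and 16. Bars of shared peaks differ in length where 1 wide peak of a list meets several narrow ones of the other. They also differ where only 1 summit of a matched pair lies within 2 kb of the gene, as at exex, bap and Optix.

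All 5 LIM genes, each of the longest length bin, had peaks in both lists, 20 in brat against 30 in UAS-HA-Zld. Of the 30, 11 were unmatched and lay at 4 of the genes, while 1 of the 20 brat peaks was unmatched. Lim1, which acts in neurons and the leg, had 5 against 10 peaks. Its strongest unmatched peak lay 20.3 kb inside the gene (X:8776446-8777138), with 305 fragments and a fold of 7.36, and no brat number was absent there. Its end peak was shared, with 410 fragments in brat against 858 in UAS-HA-Zld.

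The islet gene tup, which specifies motor neurons, had 2 shared peaks and 3 UAS-HA-Zld-only peaks. The strongest of these (2L:18876997-18877664) had 573 fragments and a fold of 8.23, and lay 3309 bp from the nearest brat peak. Awh, named for arrowhead, came next after ct by its strongest brat peak. That peak lay at the gene's end (3L:3845657-3846377 in the UAS-HA-Zld list), with 2765 fragments at a fold of 9.62 against 4258 at 10.2. Inside Awh, a shared peak had 64 against 514 fragments and another 142 against 750, and an unmatched one of 371 fragments lay 260 bp from a brat peak. Lim3, a further motor neuron gene, had 7 against 8 peaks. Its strongest had 665 fragments in brat against 406 in UAS-HA-Zld. Apterous (ap), a gene of the dorsal wing, had 3 shared peaks.

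The ANTP-class genes are the closest relatives of the Hox genes. Of 18, 14 had a brat peak, 4 of them an unmatched one, and 13 had a UAS-HA-Zld peak, 4 of them an unmatched one. Dll, the limb gene, held 5 of the class's 8 unmatched UAS-HA-Zld peaks. It had 2 brat peaks against 8 UAS-HA-Zld peaks, and no brat number was absent at any of these 5. The strongest of them lay 1755 bp outside the gene (2R:24836998-24838349), with 636 fragments and a fold of 6.29, and the rest had 144 to 246 fragments. The shared peak at the Dll end had 679 fragments in brat against 1400 in UAS-HA-Zld.

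The NK cluster holds tin, bap, lbl, lbe, C15 and slou, genes of heart, gut muscle and body muscle apart from C15, which acts in the leg tip. Its span of 182.2 kb held 11 brat peaks, 3 of them unmatched, against 21 UAS-HA-Zld peaks, 13 of them unmatched. Of the latter, 10 lay more than 2 kb from the 6 genes. Around this span 1 brat number and 7 UAS-HA-Zld numbers were absent. At bap the strongest peak had 1139 fragments and a fold of 7.82 in brat against 775 and 3.76 in UAS-HA-Zld. At slou the folds were 11.3 against 5.45, while at C15 the end peak had 272 against 680 fragments. No peak was found at tin, the heart gene.

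The remaining ANTP-class genes had at most 4 peaks a list. The neural genes ems, bsh, exex, unpg and Dr each had 1 UAS-HA-Zld peak, all shared. At Dr it had 401 fragments in brat against 1005 in UAS-HA-Zld. At scro, an NK2-type gene, a brat-only peak 13.3 kb inside had 205 fragments and a fold of 8.73, with 1 UAS-HA-Zld number absent. B-H2 had a single weak brat-only peak of 70 fragments, at a fold of 1.955, where 2 UAS-HA-Zld numbers were absent. Its neighbour B-H1, E5 and H2.0 had none.

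The zinc finger class had 5 brat peaks, all shared, against 11 UAS-HA-Zld peaks, 6 of them unmatched. At zfh1, a gene of mesoderm and motor neurons, 1 brat peak stood against 5. The shared end peak had 362 against 883 fragments, and the 4 unmatched ones had 97 to 246, with no brat number absent at any. At zfh2 both unmatched peaks lay where 2 brat numbers were absent.

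In the CUT class few peaks were unmatched in UAS-HA-Zld, 2 of 18. Cut (ct), which acts in sensory organs and their neurons, held the strongest brat peak of all 52 genes by −log10 q, the end peak named above, at a fold of 21.6 in brat and 8.92 in UAS-HA-Zld. A wide peak 18.9 kb inside (X:7624967-7627753 in the UAS-HA-Zld list) had 3395 fragments in brat against 3432. Of the gene's 14 brat peaks 2 were unmatched, as were 2 of its 16 UAS-HA-Zld peaks. Onecut had 3 brat peaks, 2 of them unmatched with 48 and 66 fragments, and no UAS-HA-Zld number was absent there. It lies on chromosome 4, where 48.2% of all brat peaks and 12.5% of all UAS-HA-Zld peaks were unmatched.

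In the POU class, acj6 of olfactory neurons had 2 brat-only peaks, with 57 and 68 fragments, and none the other way. They lie near other genes, Pp1-13C and CG9164. In contrast vvl, which acts in trachea and neurons, had 2 UAS-HA-Zld-only peaks, with 303 and 162 fragments, where 2 brat numbers were absent. Its shared end peak had 493 fragments in brat against 1350.

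**Figure D5:**
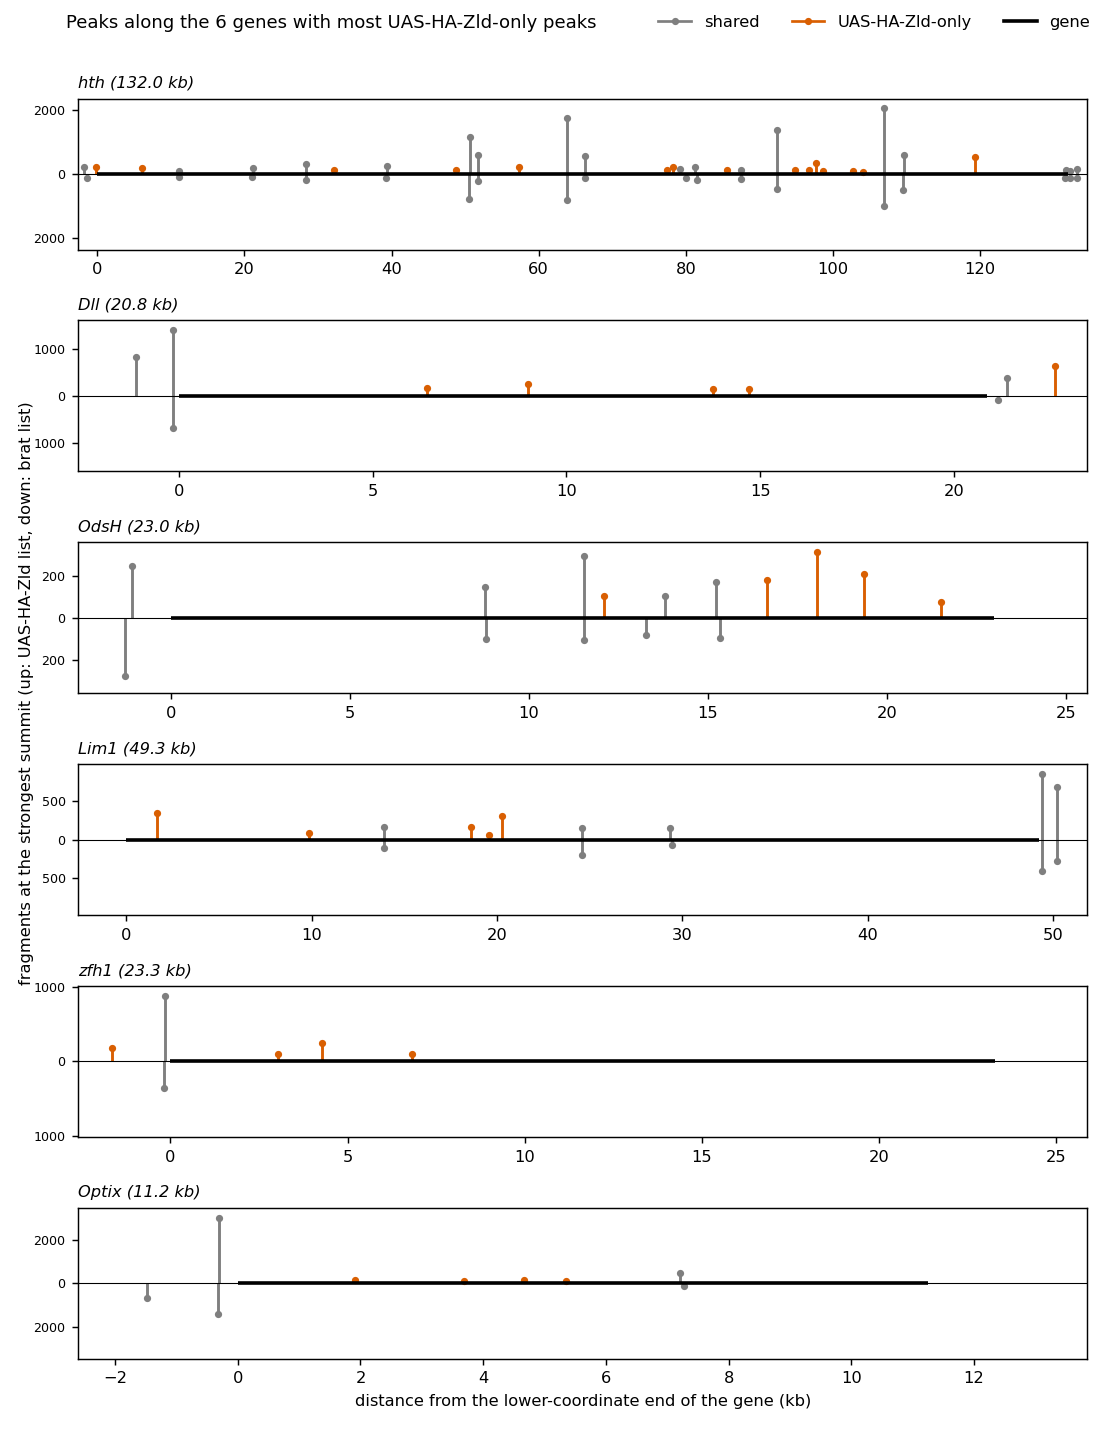
Fragments at the strongest summit of each peak along the 6 genes richest in UAS-HA-Zld-only peaks, upwards for the UAS-HA-Zld list and downwards for the brat list, by distance in kb from the lower-coordinate end of the gene. Most unmatched peaks stand inside the genes and are lower than the tallest shared peak, which has 3004 fragments at Optix, but in OdsH the tallest peak, with 311 fragments, is unmatched.

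Most UAS-HA-Zld-only peaks, 38 of 69, lay at 6 genes, hth, Dll, OdsH, Lim1, zfh1 and Optix. The 69 had a median fold enrichment of 2.98, against 4.71 for the shared peaks of the same list at homeobox genes, and a median width of 411 bp against 637 bp. The whole list had a like difference, with 2.94 against 4.32 and 435 bp against 622 bp. In all, 21 of the 69 ranked in the upper 50% of the list. Of the 18 brat-only peaks 2 ranked in the upper 50% of theirs, at exd and scro. The median percentile was 30.8 for the 69, against 32.4 over all UAS-HA-Zld-only peaks. For the 18 it was 23.6, against 25.8 over all brat-only peaks. Fold enrichments and percentiles are the authors' values or come from them, and rank peaks only within a list.

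For 7 genes no peak was found in either list. These are B-H1, tin, E5, Pph13, toy, achi and H2.0. At achi and H2.0 no number was absent in either list around the gene. At the other 5 at least 1 number of a list was absent, with 2 brat numbers and 1 UAS-HA-Zld number at toy, so a peak not analysed here may lie there.

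Set side by side, 28 of 38 other homeobox genes had a brat peak, 7 of them an unmatched one, and 31 had a UAS-HA-Zld peak, 15 of them an unmatched one. In the same order the numbers were 7, 3, 8 and 5 of 8 Hox genes and 23, 10, 23 and 10 of 32 bHLH genes. Protein-coding genes weighted to each family's lengths had a brat peak in 55.5% of cases for the other homeobox genes, 73.6% for Hox and 50.7% for bHLH. For an unmatched brat peak these shares were 21.3%, 33.2% and 19.4%. For a UAS-HA-Zld peak they were 54.2%, 71.6% and 49.9%, and for an unmatched one 22.1%, 36.3% and 20.3%. The family counts are to be read against these shares, which differ between families. The share of UAS-HA-Zld peaks that were unmatched was 33.3% (25.2 to 42.7) at the other homeobox genes, 50.0% (32.1 to 67.9) at the Hox genes and 26.7% (18.0 to 37.6) at the bHLH genes. These intervals overlap that of the 52 genes, and no test between the lists was run.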

How the data were processed

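The 2 deposited peak lists are in the narrowPeak layout, with 1 list per condition and none per replicate. The submitters' processing notes name Bowtie2, MACS2, deepTools 3.5.1 and the build dm6. The sources used here do not say how replicates were pooled, what control was given or which filters followed. Each deposited row holds the authors' score (not used), a fold enrichment ratio of pileup to background with 1 added to each, the −log10 p and the −log10 q. Rows with the same interval were taken as 1 peak, placed at its summit of highest −log10 q.

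The fold and the −log10 p were solved for a Poisson pileup and background. In both lists 100% of pileups came out whole (relative tolerance 0.0001). Tested on simulated data, the solver recovered 100% of 3917 pileups. Peaks were matched when they shared 1 bp. The RefSeq gene table of that assembly gave 17684 genes and no strand. Genes were weighted by 10 bins of length. Python 3.11.15, numpy 2.4.6, pandas 2.3.3 and scipy 1.17.1 were used.

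The members, lists and comparisons were chosen with earlier results of these data known. By rule, values were given for genes with no peak or a peak in 1 list only, the 6 with most UAS-HA-Zld-only and the 4 with most brat-only peaks, and the 6 leading by −log10 q among brat peaks and among UAS-HA-Zld-only peaks. Genes outside this rule were named to complete a class, after their values were seen. A planned motif count in promoters was not run, since no sequence was used here. The S2 and IgG samples were not analysed here. Alternatives were other thresholds, equal list lengths, stricter matching, other windows and gene ends, other summits, the nearest gene, and absent peak numbers.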

Additional observations from a re-analysis of the deposited data

How the results depend on the processing

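UAS-HA-Zld-only peaks were found at more homeobox genes than brat-only peaks in all 14 alternatives that recompute both, and in the same 14 the unmatched share was higher for UAS-HA-Zld peaks than for brat peaks. The UAS-HA-Zld list is also the longer, with 9065 peaks against 7644. Over all peaks its unmatched share is likewise higher, 32.9% against 21.9%. No background was recomputed in the 14, so they do not show whether this direction is particular to homeobox genes. Of 130 recomputed values over the 52 genes, 112 stayed close to those reported. Close meant a share inside its Wilson interval, or a count or fragment ratio within a fixed factor of the reported one. A count could thus shift by several genes and still be called close. With equal list lengths the unmatched brat share was 23.6%. Requiring overlap of at least 50% of each peak gave unmatched shares of 50.6% for UAS-HA-Zld and 27.6% for brat, with brat-only peaks at 21 genes, and strongest summits within 250 bp gave 47.2% and 23.6%. With no flank around the genes, 23 had a brat peak, 28 a UAS-HA-Zld peak and 8 a brat-only peak, the unmatched UAS-HA-Zld share was 48.8%, its share at gene ends 0%, and the fragment ratio at gene ends 1.44. Assignment to the nearest protein-coding gene gave a brat share of 8.86%. Leaving out unmatched peaks beside absent numbers gave 16 genes with a UAS-HA-Zld-only and 6 with a brat-only peak, and shares of 19.4% and 6.30%. Leaving out hth, leaving out chromosome 4 and other widths of a gene end were chosen after seeing the data. Without hth the share of UAS-HA-Zld-only peaks at gene ends was 0%. For the other changes the cause was not tested. No paired analysis was possible because there is 1 list per condition, and for the same reason no replicate could be left out. A site below the depth of the brat list can appear as UAS-HA-Zld-only.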
